A study of Mus musculus with 14 samples.

Results

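The genes described here are 9 peptide hormone genes of the gut, Ghrl, Gcg, Sct, Cck, Gip, Pyy, Sst, Nts and Tac1, and Tph1, which encodes the enzyme that commits tryptophan to serotonin in the gut epithelium. They were taken by gene symbol, and 13 probes of the array carry 1 of the 10 symbols, of 45248 probes with a recovered level. They are 10 of 19051 gene symbols on the array. Ghrl, Nts and Tac1 have 2 probes each, called the brighter and the dimmer probe, and the other genes have 1. Levels are log2 values on a scale that runs from 6.41 to 14.94 over the libraries used, with the array median at 6.78 to 6.79, close to the floor. Any difference of a gene near that floor would be understated. A probe was tested when it exceeded the median of the array in at least 3 of 10 libraries, which 11 of the 13 probes did, so that all 10 genes were tested through at least 1 probe.

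The samples are cultures of mouse intestinal organoids, epithelial structures grown from crypts in matrix, from C57Bl animals aged 2-3 months. The Apc-Prox1 deleted organoids carried villin-CreER, Apcflox/flox and Prox1flox/flox, and the Apc-deleted organoids carried villin-CreER and Apcflox/flox. CreER is driven by the villin promoter of the intestinal epithelium and was switched on with tamoxifen for 2 days. The Wnt agonist R-Spondin1 was then withdrawn for 5 days, which selects organoids lacking Apc, and RNA came from cultures 7 days past tamoxifen. Every group has therefore lost Apc, and no organoids with intact Apc were compared. A pair of arrays was deposited under both series, 1 of them also under both genotypes, and was left out of the main comparisons. This left 2 Apc-Prox1 deleted and 4 Apc-deleted libraries in series 1, and 2 and 2 in series 2. Nothing in the labels ties a replicate to its own animal or culture, so the spread behind each p-value may be technical.

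Gut hormones are made by enteroendocrine cells, scattered secretory cells of the intestinal epithelium that descend from crypt stem cells through progenitors expressing the transcription factor Neurog3. Different enteroendocrine subtypes release different peptides, and enterochromaffin cells make serotonin with Tph1 and often the tachykinin substance P from Tac1. Prox1 is a homeobox transcription factor that is also expressed in enteroendocrine cells of the mouse gut. The comparison asks which of these products differ when Prox1 is lost in addition to Apc. In RNA of whole cultures, fewer cells of a type and less RNA per cell cannot be told apart.

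The deleted gene was checked first. Prox1 averaged 8.07 ± 0.31 (SD, n = 2) in Apc-Prox1 deleted and 9.81 ± 0.47 (n = 4) in Apc-deleted organoids of series 1, and 9.09 ± 0.62 and 10.48 ± 0.61 (n = 2 each) in those genotypes of series 2. It was lower by a log2 difference of -1.59 over both series (limma adjusted p = 0.000185). Of the defining markers of intestinal epithelium, Krt8 lay between 12.71 and 13.89, Cdx2 between 10.45 and 11.61, Vil1 between 10.04 and 10.95 and Cdh1 between 8.51 and 10.24 in the 10 libraries. The Epcam probe lay at 6.65 to 6.87, at the floor.

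Over both series, 5 of the 10 genes fell in Apc-Prox1 deleted organoids, 0 rose and 5 did not pass, with each gene read through its brighter probe. Ghrl, Sct, Gcg, Tac1 and Tph1 fell. Tph1 entered the test only through the 4 Apc-deleted libraries of series 1, where it was high, so its place in this count and in that of series 1 is no support for either. For comparison, 6.79% of the 26342 probes tested were called lower and 5.94% higher in the same fit. The median difference of the 10 genes was -0.56, and that of all probes tested was 0.0049. Within series 1, 7 genes fell, with Gip and Sst added to these 5, where 4.32% of probes were called lower and 4% higher. Within series 2 only Ghrl and Gcg fell, where 2.41% of probes were called lower and 1.71% higher. The count over both series was 4 without Apc-Prox1 deleted series 1 replicate 2, and the count in series 1 was then 3, with Gcg, Gip, Sst and Tph1 no longer passing. In series 2 it was 0 when Apc-deleted replicate 1, Apc-Prox1 deleted replicate 1 or Apc-Prox1 deleted replicate 3 was left out. With all 14 entries used as labelled, 5 genes fell over both series, 6 in series 1 and 0 in series 2.

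**Figure D1:**
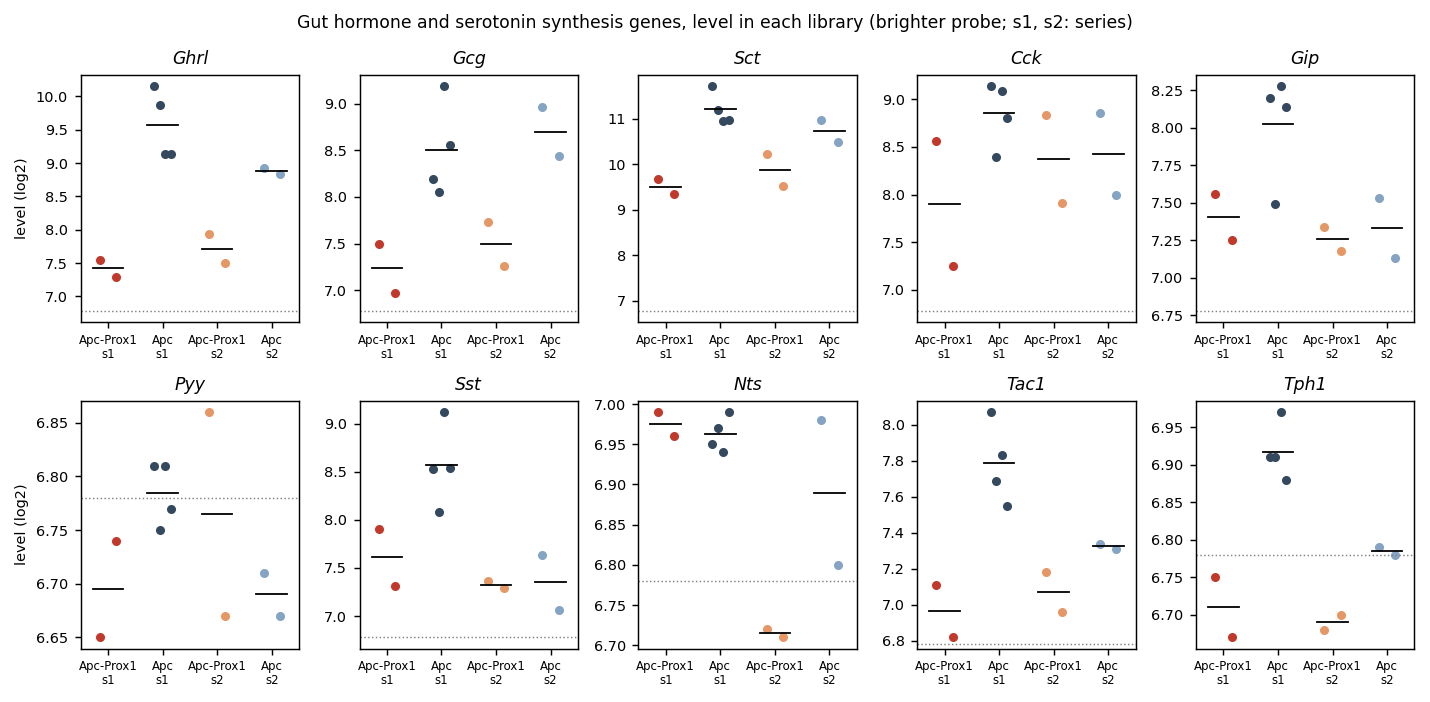
Level (log2) of each gene in each of the 10 libraries, read through its brighter probe, with a bar at the group mean and a dotted line near the array median (6.78). The vertical scale differs between panels; Ghrl, Gcg, Sct, Tac1 and Tph1 are the genes whose Apc-Prox1 deleted libraries lie below all Apc-deleted libraries of the same series in both series.

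Ghrelin, encoded by Ghrl, is the peptide of the stomach and upper gut that stimulates appetite and growth hormone release, and its gene had the largest fitted fall of the 10 in series 1 and over both series, while Gcg had that of series 2. The brighter probe read 7.55 and 7.29 in the 2 Apc-Prox1 deleted libraries of series 1, against 10.16, 9.87, 9.14 and 9.13 in the 4 Apc-deleted libraries. Series 2 levels were 7.93 and 7.5 in Apc-Prox1 deleted and 8.93 and 8.83 in Apc-deleted libraries. The genotypes did not overlap in either series, and the highest Apc-Prox1 deleted value of all, 7.93, was still below the lowest Apc-deleted value, 8.83. The difference was -2.16 in series 1 (SE 0.24, 4.46-fold lower, limma adjusted p = 1.85e-05) and -1.17 in series 2 (SE 0.27, 2.25-fold lower, adjusted p = 0.0213), and -1.73 over both (SE 0.22, adjusted p = 6.34e-05). The dimmer probe went the same way, with a series 1 difference of -1.19 (adjusted p = 0.000623) and a smaller one, -0.82, in series 2 (adjusted p = 0.0424). Its series 2 call was lost in 11 of 19 alternatives, among them no quantile normalization (adjusted p = 0.275), the deposited ratios (0.281), all 14 entries (0.145) and a robust variance prior (0.0938). In Apc-Prox1 deleted organoids it lay between 6.85 and 7.28, next to the floor. In series 2 the brighter probe no longer passed after the removal of any single library of that series (adjusted p = 0.0577 to 0.139), without quantile normalization (0.0836), on the deposited ratios (0.096), with all 14 entries (0.133) and without a variance trend (0.116).

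Secretin, from Sct, is the hormone of the duodenal S cell that drives bicarbonate secretion by the pancreas. Sct read 9.67 and 9.34 in Apc-Prox1 deleted libraries of series 1, against 11.72, 11.19, 10.95 and 10.97 in Apc-deleted ones. Levels in series 2 were 10.22 and 9.53 in Apc-Prox1 deleted and 10.98 and 10.48 in Apc-deleted libraries. Again the genotypes did not overlap within a series, and here all libraries lay well above the floor. Sct fell 3.24-fold in series 1 (-1.70, SE 0.23, limma adjusted p = 0.000182) and 2.53-fold over both series (-1.34, SE 0.20, adjusted p = 0.000331). The series 2 difference was -0.86 (95% interval -1.43 to -0.29) and did not pass (adjusted p = 0.0912). It did pass in series 2 with Apc-deleted series 1 replicate 1 left out (adjusted p = 0.0472).

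Gcg encodes proglucagon, which the L cells of the gut cleave into the incretin GLP-1 and the growth-promoting peptide GLP-2. It read 7.5 and 6.97 in Apc-Prox1 deleted libraries of series 1, against 8.19, 8.05, 9.19 and 8.56 in Apc-deleted ones. The series 2 libraries read 7.73 and 7.26 in Apc-Prox1 deleted and 8.96 and 8.44 in Apc-deleted libraries. The differences in the 2 series were closest for this gene, at -1.26 (SE 0.25, limma adjusted p = 0.00359) in series 1 and -1.20 (SE 0.29, adjusted p = 0.025) in series 2. Over both series Gcg fell 2.36-fold (-1.24, SE 0.19, adjusted p = 0.00038). Gcg in series 1 rested on its lowest library: with Apc-Prox1 deleted replicate 2 removed the difference was -1.0 (adjusted p = 0.131). The series 2 call was lost without Apc-deleted replicate 1 or either Apc-Prox1 deleted library (adjusted p = 0.0609 to 0.224), without quantile normalization (0.119), on the deposited ratios (0.18), with all 14 entries (0.0903), with a robust variance prior (0.133) and without a variance trend (0.14).

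Tac1 encodes the precursor of substance P and neurokinin A, peptides of enterochromaffin cells and enteric neurons. Its brighter probe read 7.11 and 6.82 in Apc-Prox1 deleted libraries of series 1, against 8.07, 7.69, 7.83 and 7.55 in Apc-deleted ones. Its series 2 levels were 7.18 and 6.96 in Apc-Prox1 deleted and 7.34 and 7.31 in Apc-deleted libraries. The groups did not overlap within either series, although in series 2 the gap between them was narrow. Tac1 fell 1.77-fold in series 1 (-0.82, SE 0.13, limma adjusted p = 0.000527) and 1.5-fold over both series (-0.58, SE 0.12, adjusted p = 0.00356). The series 2 difference was -0.26 (95% interval -0.57 to 0.05, adjusted p = 0.42). The size of the fall depends on the divisor used to recover the levels: with the largest possible one Tac1 differed by -1.46 in series 1 (adjusted p = 5.32e-06) and -0.96 over both series (adjusted p = 0.00192). That divisor would put Tac1 at a level of 14.61, near the top of the scale at 14.94, against a mean of 7.39 with the divisor used. The dimmer probe was at the floor in every library, between 6.57 and 6.83, and was not tested.

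Tph1 sets the rate of serotonin synthesis in enterochromaffin cells, and its probe lay next to the floor throughout. It read 6.75 and 6.67 in Apc-Prox1 deleted libraries of series 1, against 6.91, 6.91, 6.97 and 6.88 in Apc-deleted ones. Series 2 levels were 6.68 and 6.70 in Apc-Prox1 deleted and 6.79 and 6.78 in Apc-deleted libraries. The genotypes did not overlap within either series, but the step was small, -0.21 in series 1 (SE 0.05, limma adjusted p = 0.00783) and -0.10 in series 2 (adjusted p = 0.392). Over both series it was -0.16 (SE 0.04, adjusted p = 0.00691). Tph1 was tested only because the 4 Apc-deleted libraries of series 1 exceeded the array median. A high value in that group was thus built into the choice. With the largest possible divisor Tph1 differed by -0.50 in series 1 (limma adjusted p = 0.00375) and -0.35 over both series (adjusted p = 0.00997). That divisor would put Tph1 at a level of 13.61, against a mean of 6.8 with the divisor used. With replicate 2 of the Apc-Prox1 deleted libraries of series 1 removed, Tph1 no longer passed over both series (adjusted p = 0.0724).

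The promoters of Gcg, Sct and Tac1 are shown because these 3 genes fell over both series and have a single start in RefSeq (GRCm38.p6). Each is the 250 bases before the start, with matches to CANNTG, the E-box letters that basic helix-loop-helix factors such as Neurog3 and Neurod1 bind, in capitals. Gcg lies at chr2:62483654-62483903 on the minus strand, Sct at chr7:141279134-141279383 on the minus strand and Tac1 at chr6:7554811-7555060 on the plus strand.
Gcg: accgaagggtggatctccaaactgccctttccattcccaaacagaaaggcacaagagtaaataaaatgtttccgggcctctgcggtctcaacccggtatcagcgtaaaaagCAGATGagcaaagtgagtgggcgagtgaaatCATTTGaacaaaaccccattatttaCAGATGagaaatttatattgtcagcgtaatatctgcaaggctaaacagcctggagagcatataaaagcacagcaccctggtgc
Sct: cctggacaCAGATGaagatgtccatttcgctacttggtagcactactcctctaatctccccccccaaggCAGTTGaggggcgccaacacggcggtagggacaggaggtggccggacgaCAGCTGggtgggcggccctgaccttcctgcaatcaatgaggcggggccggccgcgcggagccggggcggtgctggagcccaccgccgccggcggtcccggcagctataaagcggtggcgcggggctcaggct
Tac1: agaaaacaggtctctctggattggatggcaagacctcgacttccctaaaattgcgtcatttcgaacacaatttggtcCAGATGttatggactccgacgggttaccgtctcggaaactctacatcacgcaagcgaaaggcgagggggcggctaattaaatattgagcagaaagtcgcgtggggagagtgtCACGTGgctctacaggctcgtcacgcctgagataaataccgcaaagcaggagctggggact
CANNTG reads the same on both strands and had 3 matches in Gcg, 3 in Sct and 2 in Tac1. It was found in 66.2% of 32851 promoter windows of the same length, with a median of 1 match, so a match is common. Among the genes with a single start that did not pass over both series, Cck had 3 matches, Gip 2, Sst 1 and Nts 1. TATAAA, the core of the TATA box, occurred 24 bases before the start of Gcg and 28 bases before that of Sct, and was found on either strand in 12.4% of windows. CTTTGA, the core of the Tcf/Lef motif through which Wnt signalling acts, was searched on both strands and had 0 matches in the windows of these 3 genes, against 13.8% of windows with a match. Ghrl has 4 listed starts and Tph1 has 2, and neither is shown.

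A further 3 hormone genes, Gip, Sst and Cck, had lower means in Apc-Prox1 deleted organoids of series 1 and nearly equal means in the genotypes of series 2. Gip encodes the incretin of duodenal K cells. It read 7.56 and 7.25 in Apc-Prox1 deleted libraries of series 1, against 8.20, 7.49, 8.28 and 8.14 in Apc-deleted ones, where replicate 2 overlapped the other genotype. Levels in series 2 were 7.34 and 7.18 in Apc-Prox1 deleted and 7.53 and 7.13 in Apc-deleted libraries. The series 1 difference of -0.62 passed (SE 0.18, limma adjusted p = 0.0387), but removing any single series 1 library other than Apc-deleted replicate 2 ended the call (adjusted p = 0.0839 to 0.45), as did the deposited ratios (0.0809), a robust variance prior (0.07) and no variance trend (0.141). With the largest possible divisor in the recovery of the levels, Gip differed by -0.38 in series 1 (adjusted p = 0.236). That divisor would put Gip at a level of 14.96, against a mean of 7.61 with the divisor used. The difference in series 2 was -0.07 (95% interval -0.50 to 0.37), and that over both series was -0.38 (adjusted p = 0.114).

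Somatostatin, from Sst, is the peptide of D cells that inhibits the release of most other gut hormones. Sst read 7.91 and 7.31 in Apc-Prox1 deleted libraries of series 1, against 8.53, 8.08, 9.12 and 8.54 in Apc-deleted ones, without overlap. The series 2 libraries read 7.36 and 7.29 in Apc-Prox1 deleted and 7.64 and 7.06 in Apc-deleted libraries, so that both Apc-Prox1 deleted values lay inside the Apc-deleted range. It fell by 0.96 in series 1 (SE 0.22, limma adjusted p = 0.0109), a call that ended when replicate 2 of its Apc-Prox1 deleted libraries was removed (adjusted p = 0.304) and with a robust variance prior (0.0618) or no variance trend (0.0803). The series 2 difference was -0.03 (95% interval -0.57 to 0.52), and over both series it was -0.56 (adjusted p = 0.0862).

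Cholecystokinin, from Cck, is the I-cell hormone of gallbladder contraction and satiety. Cck read 8.56 and 7.25 in Apc-Prox1 deleted libraries of series 1, against 9.14, 8.39, 9.09 and 8.80 in Apc-deleted ones. Its series 2 levels were 8.83 and 7.91 in Apc-Prox1 deleted and 8.86 and 8.0 in Apc-deleted libraries, and in each genotype replicate 1 was the higher. The difference was -0.95 in series 1 (SE 0.32, limma adjusted p = 0.0834), -0.06 in series 2 (95% interval -0.84 to 0.72) and -0.57 over both series (adjusted p = 0.197). In series 1 it passed when Apc-Prox1 deleted replicate 1, the higher of that pair, was left out (-1.60, adjusted p = 0.016), which sets a single Apc-Prox1 deleted library against the others and takes its spread from the other groups.

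Pyy and Nts, hormones of the lower gut that slow motility and gastric emptying, were measured at the floor. Pyy lay between 6.65 and 6.86 in the 10 libraries and exceeded the array median in 3 of them, 2 Apc-deleted libraries of series 1 and 1 Apc-Prox1 deleted library of series 2. Its difference was -0.02 over both series (95% interval -0.11 to 0.07, limma adjusted p = 0.842). The brighter Nts probe read 6.99 and 6.96 in Apc-Prox1 deleted and between 6.94 and 6.99 in Apc-deleted libraries of series 1. Series 2 levels were 6.72 and 6.71 in Apc-Prox1 deleted and 6.98 and 6.80 in Apc-deleted libraries, a difference of -0.17 that did not pass (adjusted p = 0.181). The dimmer Nts probe lay between 6.64 and 6.79 and was not tested. Any difference of Pyy or Nts would be understated this close to the floor, and these values cannot show whether there is one.

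**Figure D2:**
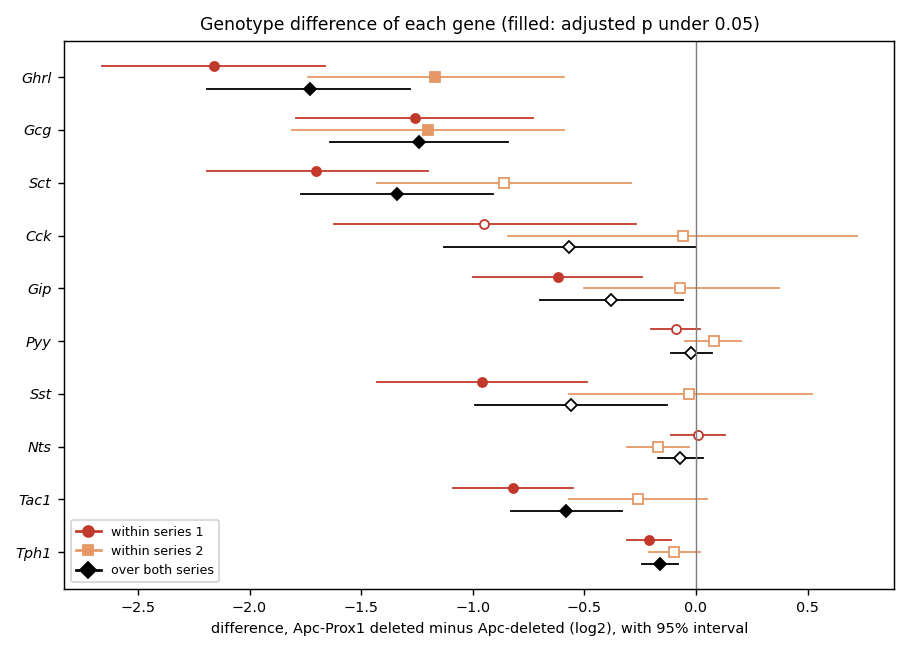
Difference between Apc-Prox1 deleted and Apc-deleted organoids (log2) for each gene, with the 95% interval, within series 1, within series 2 and over both series; filled symbols passed at an adjusted p under 0.05. Ghrl and Gcg are filled in all 3 comparisons, Sct, Tac1 and Tph1 in series 1 and over both, and Gip and Sst in series 1 only.

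The fitted differences were larger in series 1 than in series 2 for most of these genes, but the difference between series was not called for any of the 10 by limma, where 0.562% of probes were called. At an unadjusted limma p under 0.05 there were 5, namely Tac1, Ghrl, Sst, Sct and Pyy, with limma adjusted p-values between 0.397 and 0.684. The share of all probes at that unadjusted threshold was not counted, so the 5 cannot be set against the 0.562%. The highest Apc-Prox1 deleted value was below the lowest Apc-deleted value for 7 genes in series 1, 6 in series 2 and 5 in both series, as it was for 14%, 20.3% and 7.15% of probes tested. Each of these counts holds Tph1, which was tested only through Apc-deleted libraries of series 1 and so is no support. The series 1 count holds Pyy, by 6.74 against 6.75, and the series 2 count holds Nts, both near the floor.

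Libraries of a group differed in level across several hormones at once. Set against the Apc-deleted mean of the same series, the median of the 10 genes was -0.56 in Apc-Prox1 deleted series 1 replicate 1 and -1.11 in replicate 2. In series 2 it was -0.13 in Apc-Prox1 deleted replicate 1 and -0.28 in replicate 3, and 0.15 and -0.15 in Apc-deleted replicates 1 and 3. Apc-Prox1 deleted series 1 replicate 2 thus had the lowest median, with shifts of -2.29 for Ghrl, -1.86 for Sct, -1.60 for Cck and -1.53 for Gcg. Among Apc-deleted libraries of series 1, replicate 2 was below the group mean for Gip (-0.53), Sst (-0.49), Cck (-0.47) and Gcg (-0.45) but above it for Ghrl (0.29), and replicate 3 was above it for Gcg (0.69) and Sst (0.55) but below it for Ghrl (-0.43).

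**Figure D3:**
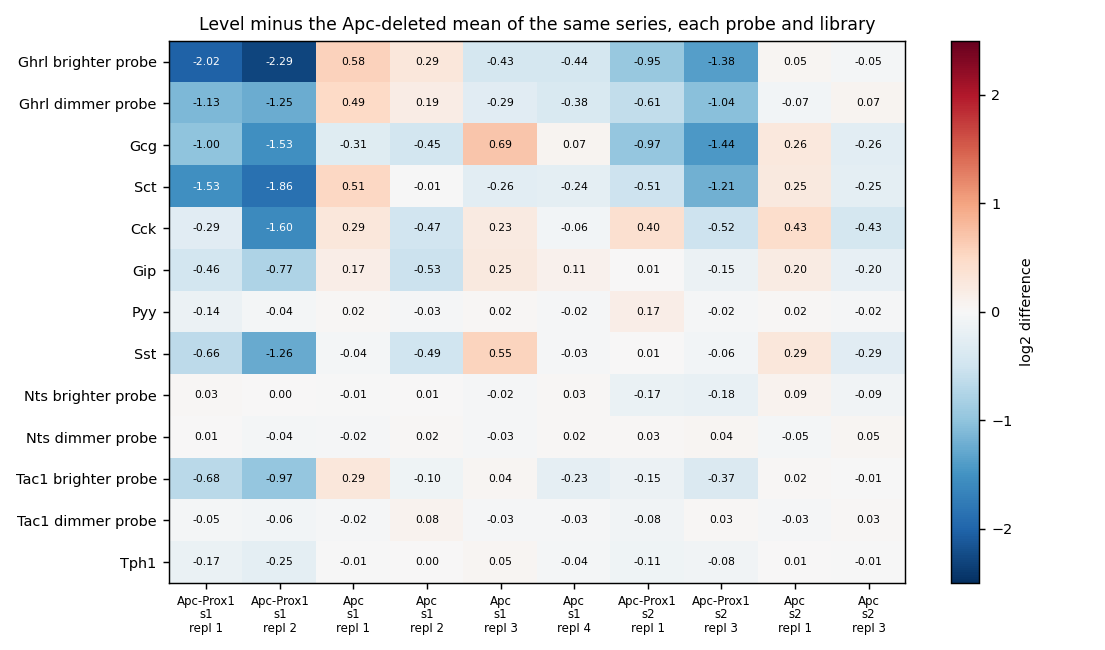
Level of each of the 13 probes in each library minus the mean of the Apc-deleted libraries of the same series (log2), blue where lower and red where higher. Apc-Prox1 deleted series 1 replicate 2 has the lowest values for Gcg, Sct, Cck, Gip, Sst, both Ghrl probes and the brighter Tac1 probe, and in series 2 the Ghrl, Gcg and Sct rows are blue in both Apc-Prox1 deleted libraries while Cck is not.

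Genes of the wider enteroendocrine programme were counted from lists, with each gene read through its brightest probe. Beside every such count over both series stand the 6.79% of all probes tested that were called lower and the 5.94% called higher. Of 24 other gut peptides with a probe 14 were tested, and 0 fell and 1 rose over both series, Edn1, the vasoconstrictor endothelin 1 (1.0, SE 0.17, limma adjusted p = 0.000941). Of 11 tested genes of amine synthesis and handling 2 fell and 1 rose. Hdc, which makes histamine, fell 2.71-fold (-1.44, SE 0.19, adjusted p = 0.000104), at 7.27 in Apc-Prox1 deleted and 8.83 in Apc-deleted organoids of series 1 and 7.43 and 8.71 in those of series 2. Maob, a monoamine oxidase, fell by 0.78 (SE 0.16, adjusted p = 0.00315), and Gch1, which starts synthesis of the cofactor of tryptophan hydroxylase, rose by 0.62 (SE 0.14, adjusted p = 0.00772).

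Of 19 tested genes of peptide processing and granules 9 fell and 0 rose over both series, with a median of -0.22. In series 1, 11 fell, and in series 2, 4 fell. Of all probes tested, 6.79% were called lower over both series, 4.32% in series 1 and 2.41% in series 2. The smallest p-values were those of the granin Scg2 (-0.77, SE 0.09, limma adjusted p = 3.69e-05), the exocytosis regulator Cplx2 (-1.10, SE 0.13), the calcium sensor Scgn (-0.49, SE 0.07), Fam183b (-0.67, SE 0.10) and the carboxypeptidase Cpe (-0.89, SE 0.14), which trims hormone precursors. In Apc-Prox1 deleted organoids of series 1 and 2, Scg2 averaged 6.79 and 6.78 and Cplx2 6.84 and 6.76, next to the floor. In Apc-deleted ones Scg2 averaged 7.45 and 7.69 and Cplx2 8.04 and 7.72. Both may thus have passed the filter through the genotype where they were high, and their places in the count are no support. Mboat4, the enzyme that acylates ghrelin, averaged 6.74 in Apc-Prox1 deleted and 6.99 in Apc-deleted organoids of series 1, near the floor, and its difference over both series was -0.16 (adjusted p = 0.0711). Of 18 tested enteroendocrine transcription factors 7 fell and 1 rose, with a median of -0.13. Neurog3, the factor that commits progenitors to this lineage, fell 3.18-fold (-1.67, SE 0.25, adjusted p = 0.000351), and it averaged 8.34 in Apc-Prox1 deleted and 10.22 in Apc-deleted organoids of series 1 and 8.70 and 10.08 in those of series 2. Sox4 (-1.04, SE 0.11), Isl1 (-0.58, SE 0.08), Myt1 (-0.39, SE 0.06) and Insm1 (-0.66, SE 0.15) also fell, and Hhex rose (0.22, SE 0.06, adjusted p = 0.035). Myt1 averaged 6.74 and 6.62 in Apc-Prox1 deleted organoids of series 1 and 2, below the array median, and 7.17 and 6.97 in Apc-deleted ones. It thus passed the filter at least partly through the genotype where it was high. The same may hold for Isl1, which averaged 6.79 and 6.83 in Apc-Prox1 deleted and 7.21 and 7.62 in Apc-deleted organoids. Mnx1, also in the count and possibly kept in the same way, averaged 6.72 and 6.79 against 6.88 and 7.08. The places of Myt1, Isl1 and Mnx1 in the count are no support.

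The last of these lists hold genes through which enteroendocrine cells sense the lumen and through which hormones act. Of 12 tested nutrient and chemical sensors 1 fell, the short-chain fatty acid receptor Ffar2 (-0.35, SE 0.07, limma adjusted p = 0.0038), and 0 rose. That count is near the share of all probes called lower, 6.79%. Of 11 tested hormone receptors 0 fell and 0 rose, and 0 had an unadjusted p under 0.05. Their median difference was 0.00.

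**Figure D4:**
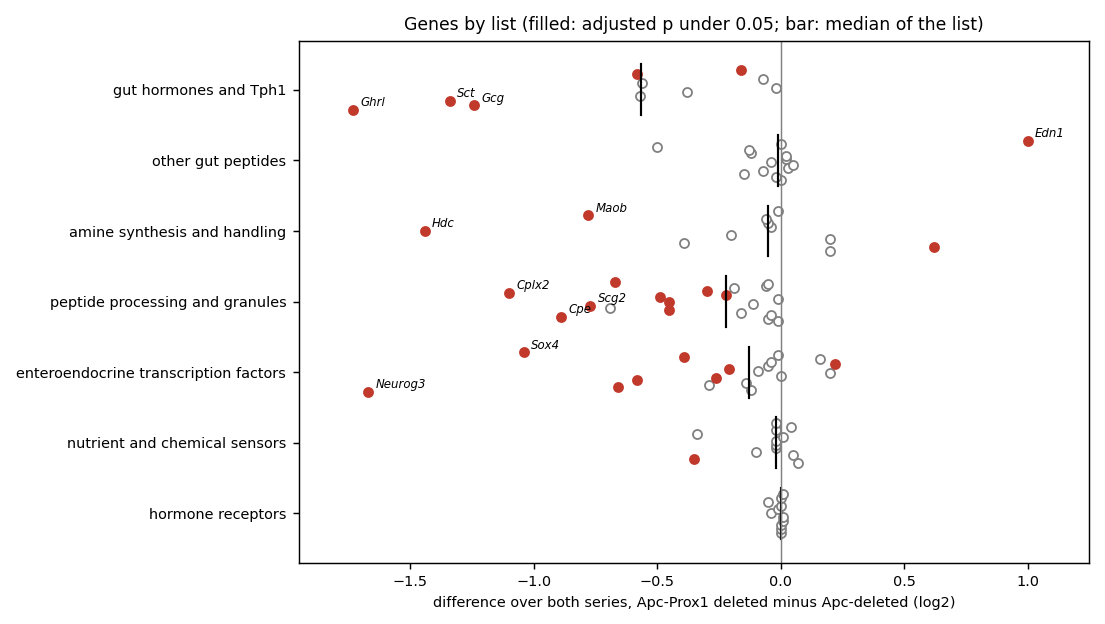
Difference over both series (log2, Apc-Prox1 deleted minus Apc-deleted) of each tested gene by list, read through its brightest probe; filled points passed at an adjusted p under 0.05 and the bar is the list's median. The hormones reach from -1.73 (Ghrl) to -0.02 (Pyy), and the hormone receptors lie around 0.

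The genes most like Sct, Ghrl and Cck across the 10 libraries were found by Pearson correlation after centring within each series. For Ghrl these were Kiz (r = 0.993), Cryba2 (0.979) and Chga (0.978), the last encoding the granule protein chromogranin A. For Sct they were Rsph9 (0.968), Pkp1 (0.964) and Kctd15 (0.962). For Cck they were Sstr2 (0.949), a somatostatin receptor whose difference over both series was -0.04, Snurf (0.948) and Renbp (0.938). Group means of Sstr2 lay between 6.66 and 6.85, at the floor, so its coefficient rests on very small steps. For Ghrl and Sct the genotypes lie apart, so that these coefficients hold the genotype difference, and all genes share the same 10 libraries. All of these coefficients were picked as the highest among the tested probes with a gene symbol, so high values are partly due to that choice.

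Markers of other cell types were set beside these results. Of all probes tested, 4.32% were called lower in series 1, 2.41% in series 2 and 6.79% over both series. Enterocyte markers had a mean level of 7.65 to 7.82 in Apc-Prox1 deleted and 8.39 to 8.81 in Apc-deleted libraries of series 1, and of 7.20 to 7.92 and 7.34 to 7.59 in those of series 2. Of 5 tested, 3 fell in series 1, among them sucrase-isomaltase, Sis (-2.48, limma adjusted p = 1.68e-06), and 0 fell in series 2, where 0 had an unadjusted p under 0.05. Goblet cell markers averaged 8.62 to 8.87 in Apc-Prox1 deleted and 9.10 to 9.35 in Apc-deleted libraries of series 1, and 8.43 to 8.54 and 8.31 in those of series 2. Of 7 tested, 3 fell in series 1, including the mucin Muc2 (-0.83, adjusted p = 0.00332), and 0 passed in series 2. The 3 with an unadjusted p under 0.05 there had positive differences, 0.61 for Muc2 and 0.34 for both Spdef and Clca1, and the list's median was 0.34. Over both series Sis fell (-1.48, SE 0.33, adjusted p = 0.00604) and 0 of the goblet cell markers passed, with 2 at an unadjusted p under 0.05. Paneth cell markers averaged 10.25 to 10.59 in Apc-Prox1 deleted and 10.71 to 11.02 in Apc-deleted libraries of series 1, and 10.02 to 10.08 and 10.16 to 10.41 in those of series 2, and 3 of 7 fell in series 1 and 1 in series 2. Over both series the defensins Defa26 (-1.20, SE 0.11, adjusted p = 5.42e-06) and Defa21 (-0.72, SE 0.15, adjusted p = 0.004) fell. The part of these shifts in the hormone differences was not tested.

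Enteric neurons also express Tac1, Sst and Nts, and their markers were at the floor. Over 13 neuron and glia markers the mean level was 6.73 to 6.74 in Apc-Prox1 deleted and 6.76 to 6.83 in Apc-deleted libraries of series 1, and 6.76 to 6.80 and 6.81 in those of series 2. Of 10 tested 1 fell, Elavl3 (-0.29, SE 0.05, limma adjusted p = 0.000491), and 0 rose, while 6.79% of all probes tested were called lower. Elavl3 averaged 6.72 and 6.71 in Apc-Prox1 deleted organoids of series 1 and 2, below the array median, and 6.94 and 7.08 in Apc-deleted ones. It thus passed the filter at least partly through the genotype where it was high. Tuft cell markers (5 tested) and fibroblast and muscle markers (5 tested) had mean levels between 6.73 and 7.02 in all groups, and 0 of either list passed over both series, with 1 and 0 at an unadjusted p under 0.05. Of 4 tested immune cell markers 1 fell, Kit (-0.45, adjusted p = 0.0209), and their mean levels lay between 6.79 and 7.00. Single markers reached higher group means than their lists: Avil (tuft) 7.53, Acta2 (muscle) 8.36 and Kit 8.17.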

How the data were processed

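Biotinylated cRNA was hybridised to Illumina bead arrays, per the labels' protocols. The authors deposited a table of 45281 probes in which each value is a ratio, with a median of 1.0 for every probe within each series. Background correction and normalization are not given in the sources used here. Each ratio was read as a log2 value over the probe's median of its series: multiplied by the right divisor, sought between 6.0 and 16.0, the ratios become whole steps of 0.01. Log2 values were recovered for 45248 probes and 33 were left out. Where several divisors were possible the smallest was taken, which for Gip, Pyy, Nts, Tac1 and Tph1 rests on that choice in both series. A second deposited table was not used, because its 28 value columns carry names that match no label.

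All 91 pairs of the 14 entries were compared after quantile normalization with limma 3.58.1 (R 4.3.3). In 2 pairs no probe differed by over 0.02 log2, so 4 entries hold 2 arrays. Each array was deposited under labels that differ in series or genotype. These 4 entries were part of the normalization and were left out of the main fits. Probes over the array median in at least 3 of the 10 libraries were kept (26342). The fits used lmFit, then eBayes with trend, on 4 group means (6 residual degrees of freedom) and with series and genotype as terms (7), and p-values were adjusted by Benjamini-Hochberg over all kept probes (threshold 0.05). The recovery and the fit were tested on simulated data. For the recovery these were built from the recovered levels, so that test cannot show whether the smallest divisor was right. Named genes of other lists are up to 5 a list with the smallest p among those passing over both series, and genes named beside them, such as Mboat4, were chosen after their values were seen. The genes most like 3 members were the 3 with the highest correlation for each of the 3 members with the highest mean level. The members and lists were chosen with earlier results of these data known. Alternatives changed the normalization, the values tested, the filter, the libraries, the variance prior, the divisor, the series term and the replicate block. Where leaving out a library left a group with 1, that library was assumed to vary like the other groups. The number of arrays limits the precision.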

Additional observations from a re-analysis of the deposited data

Results flagged for a closer look

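The dimmer Tac1 probe had a library that stood apart from the others of its group: Apc-deleted series 1 replicate 2 read 6.83, against 6.72 to 6.73 in the other 3, a gap of 0.90 of the group's range. All 4 values lie at the floor. The group of 4 was examined for 13 probes, and chance flags about 1 in 20 groups.

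The genotype difference of 2 marker genes of other cell types differed between the series by the test of that difference. For Muc2 the series 1 difference minus the series 2 difference was -1.44 (limma adjusted p = 0.00893), with means of 8.91 in Apc-Prox1 deleted and 9.74 in Apc-deleted organoids of series 1 and 8.20 and 7.59 in those of series 2. For Sis it was -2.33 (adjusted p = 0.00147), with means of 8.70 in Apc-Prox1 deleted and 11.18 in Apc-deleted organoids of series 1 and 8.51 and 8.66 in those of series 2.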

How the results depend on the processing

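Ghrl, Sct and Tac1 kept their series 1 calls, and Ghrl, Gcg, Sct and Tac1 their calls over both series, under every alternative run. Tph1 was the exception over both series, lost with a replicate block (adjusted p = 0.0535) and when series 1 lacked replicate 2 of the Apc-Prox1 deleted libraries (0.0724). Gip was called over both series without Apc-deleted series 1 replicate 2 (-0.47, adjusted p = 0.0319), and Gip and Sst without Apc-deleted series 2 replicate 3 (-0.50, 0.0429, and -0.75, 0.0202).

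The number of probes called was 2191 in series 1, 1085 in series 2, 3353 over both and 148 for the difference between series. Leaving out 1 replicate gave 740 to 2587, 411 to 1262, 1916 to 3808 and 66 to 172. Series 1 fell to 779 and 740 without Apc-Prox1 deleted series 1 replicates 1 and 2, and series 2 to 462 and 411 without Apc-deleted and Apc-Prox1 deleted series 2 replicate 1. Series 2 gave 393 without quantile normalization, 360 on the deposited ratios and 170 with all 14 entries. The difference between series gave 59 on the ratios, 54 with all 14 entries, 64 with the filter met on all 10 libraries and 73 without a variance trend. Over both series 917 were called without a series term. The cause of these shifts was not tested.

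The 4 pairs with a shared replicate number had correlations of deviations of -0.03, 0.19, 0.09 and 0.09. Both series 2 values are the same number by construction, because 2 libraries of a group deviate equally in opposite directions. Low correlations over all probes cannot tell whether replicate numbers pair the samples. In series 2 the replicate block gave a limma adjusted p of 0.00033 for the brighter Ghrl probe and 8.08e-05 for Gcg, against 0.0213 and 0.025 without it. With the replicate block 1996 probes were called over both series, 1613 in series 1 and 1215 in series 2, Gip (0.0719) and Tph1 (0.0603) lost their series 1 calls, and Cck in series 1 (0.00481) and Sct in series 2 (0.0141) passed.

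Differences near 0 turned sign. Nts in series 1 was -0.05 with all 14 entries and 0.00 without Apc-Prox1 deleted series 1 replicate 1, and Sst in series 2 was 0.05 with all 14 entries. Pyy was 0.02 over both series without Apc-Prox1 deleted series 1 replicate 1 and -0.02 in series 2 without Apc-Prox1 deleted series 2 replicate 1. In series 2, Cck was 0.37, Gip 0.13 and Sst 0.26 without Apc-deleted replicate 1, and 0.40, 0.01 and 0.01 without Apc-Prox1 deleted replicate 3. Leaving out 1 replicate gave 0.00 to 0.03 for Nts in series 1, -0.07 to 0.02 for Pyy over both series, and in series 2 -0.52 to 0.40 for Cck, -0.26 to 0.13 for Gip, -0.02 to 0.17 for Pyy and -0.32 to 0.26 for Sst. Signal near the floor limits Pyy, Nts and Tph1, and 2 libraries a genotype limit series 2.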

Other observations

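The 2 arrays deposited under conflicting labels were left out of the main comparisons, and their levels are given as values. They entered the normalization and the alternative fits that used every entry as labelled. The array deposited as Apc-Prox1 deleted series 1 replicate 3 and as Apc-Prox1 deleted series 2 replicate 2 read 7.90 for the brighter Ghrl probe, 9.99 for Sct and 7.30 for Sst, with Gcg at 7.11 and 7.10 under its 2 entries. The array deposited as Apc-Prox1 deleted series 1 replicate 4 and as Apc-deleted series 2 replicate 2 read 8.65 for Ghrl, 8.48 for Gcg, 10.57 for Sct and 7.53 for the brighter Tac1 probe, with Sst at 7.11 and 7.10.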
